A study of Mus musculus with 4 samples.

Results

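The Schlafen family of genes was examined in macrophages sorted from mouse brain tumours, by RNA sequencing of bulk cells. Its 7 members here are Slfn1, Slfn2, Slfn3, Slfn4, Slfn5, Slfn8 and Slfn9, found by gene name among 54532 genes, and all 7 passed the filter on low counts that left 13932 genes. They were selected on measured values: the family was proposed with results of the same comparison known, so differences between the groups are given as a description, without p-values for the members. The 2 groups were MK-8931 (libraries MK-8931 1 and 2) and control (libraries control 1 and 2). MK-8931, or verubecestat, is a small molecule that blocks BACE1, a protease known for cutting the amyloid precursor protein. Cells of both groups came from glioblastoma (GBM) xenografts and were sorted as positive for CD45 and CD11b and negative for Gr1 and DAPI. CD45 marks leukocytes, CD11b marks myeloid cells, Gr1 is an antigen of neutrophils and some monocytes, and DAPI stains dead cells. The labels call the strain GBM mice, and they state neither the age of the hosts nor whether the libraries came from separate animals. The labelled treatment protocol speaks of glioma stem cells (GSCs) treated for 3 days with the drug or vehicle, and of RNA taken from GSCs, while the cell type entries name sorted macrophages.

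Schlafen genes, named after the German word for sleep, were first described in mouse T cells, where they were linked to growth arrest, and many of them respond to interferon. All share a core domain related to nucleic acid binding. The short proteins Slfn1 and Slfn2 hold little more than this core, the intermediate proteins Slfn3 and Slfn4 carry a further linker domain, and the long proteins Slfn5, Slfn8, Slfn9 and Slfn14 end in a helicase-like domain. In mouse macrophages Slfn4 is known to be induced by activating stimuli and to decline during differentiation driven by CSF1, and Slfn2 is required for quiescence and survival of T cells and monocytes.

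The proteins translated from the GENCODE M21 coding sequences had 337 residues for Slfn1 and 378 for Slfn2, 640 for Slfn3 and 602 for Slfn4, and 884 for Slfn5 and 910 each for Slfn8 and Slfn9. Slfn8 and Slfn9 were 85.8% identical over their aligned residues, and Slfn3 and Slfn4 83.9%. Slfn1 and Slfn2 shared 55.3% of aligned residues. All 7 genes lie on chromosome 11 (GRCm38) within 263.8 kb, in the order Slfn5, Slfn9, Slfn8, Slfn2, Slfn1, Slfn4, Slfn3. Slfn8 and Slfn9 are on the minus strand and the other members on the plus strand. The shortest gap, of 1113 bases, separates Slfn4 from Slfn3, and the longest, of 52515 bases, separates Slfn1 from Slfn4.

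Promoter sequences are shown for the run of letters that Slfn1 and Slfn4, the members that passed the threshold below, have in common with the other short and intermediate members. Each window runs from 250 bases before to 50 bases after the RefSeq start (GRCm38.p6), written along the gene's strand. The windows are chr11:83174936-83175235 for Slfn4, chr11:83116570-83116869 for Slfn1, chr11:83064862-83065161 for Slfn2 and chr11:83191080-83191379 for Slfn3, all plus strand. Capitals in these first lines mark the longest run of letters common to the short and intermediate members, a run looked for after the sequences had been seen.
Slfn4: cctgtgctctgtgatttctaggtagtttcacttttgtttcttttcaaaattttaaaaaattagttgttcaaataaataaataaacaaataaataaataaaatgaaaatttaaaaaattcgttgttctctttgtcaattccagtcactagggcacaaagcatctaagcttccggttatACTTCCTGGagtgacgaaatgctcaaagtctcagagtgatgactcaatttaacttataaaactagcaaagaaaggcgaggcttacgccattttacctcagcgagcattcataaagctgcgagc
Slfn1: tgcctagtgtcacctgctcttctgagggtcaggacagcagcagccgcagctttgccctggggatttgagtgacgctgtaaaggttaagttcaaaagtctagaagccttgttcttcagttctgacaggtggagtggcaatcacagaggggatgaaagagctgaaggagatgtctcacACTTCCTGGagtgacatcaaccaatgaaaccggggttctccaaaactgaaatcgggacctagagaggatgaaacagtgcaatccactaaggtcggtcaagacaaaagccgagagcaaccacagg
Slfn2: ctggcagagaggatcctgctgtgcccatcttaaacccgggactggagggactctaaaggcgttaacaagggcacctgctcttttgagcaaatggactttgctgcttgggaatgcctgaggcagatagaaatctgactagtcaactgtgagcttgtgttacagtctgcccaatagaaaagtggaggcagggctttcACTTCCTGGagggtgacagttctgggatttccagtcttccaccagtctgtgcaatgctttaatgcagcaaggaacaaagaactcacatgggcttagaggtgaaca
Slfn3: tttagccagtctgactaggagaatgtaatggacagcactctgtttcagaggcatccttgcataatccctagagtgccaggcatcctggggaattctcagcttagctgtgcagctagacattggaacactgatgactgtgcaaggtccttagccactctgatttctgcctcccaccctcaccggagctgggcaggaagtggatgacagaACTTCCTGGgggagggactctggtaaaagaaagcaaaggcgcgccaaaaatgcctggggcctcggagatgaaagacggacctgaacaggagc
The shared run ACTTCCTGG has 9 bases. It starts 73 bases before the start of Slfn4, 74 before Slfn1, 55 before Slfn2 and 42 before Slfn3. On either strand it occurs in 277 of 32851 promoter windows in the RefSeq table (0.84%), and it is absent from the windows of Slfn5, Slfn8, Slfn9 and Slfn14. In Slfn1 and Slfn4 the common run extends to the 15 bases acttcctggagtgac. Alignments of the windows cannot say whether the members divide this way, since their ends were left free and the aligned lengths differed. The Slfn4 window had 115 identical of 156 aligned bases with Slfn1, 117 of 151 with Slfn3 and 44 of 54 with Slfn2. With the second Slfn8 window it had 119 of 167. Slfn3 holds the run too.

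The long members are shown for their matches to the letters GAAANNGAA, a part of the interferon response element, marked in capitals. The Slfn5 window is chr11:82951852-82952151 on the plus strand and the Slfn9 window chr11:82991781-82992080 on the minus strand.
Slfn5: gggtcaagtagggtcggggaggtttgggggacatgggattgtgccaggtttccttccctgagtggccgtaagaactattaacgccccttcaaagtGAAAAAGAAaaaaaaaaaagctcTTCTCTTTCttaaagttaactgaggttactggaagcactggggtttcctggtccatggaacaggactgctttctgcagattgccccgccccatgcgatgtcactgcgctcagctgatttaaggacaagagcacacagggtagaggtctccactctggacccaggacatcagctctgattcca
Slfn9: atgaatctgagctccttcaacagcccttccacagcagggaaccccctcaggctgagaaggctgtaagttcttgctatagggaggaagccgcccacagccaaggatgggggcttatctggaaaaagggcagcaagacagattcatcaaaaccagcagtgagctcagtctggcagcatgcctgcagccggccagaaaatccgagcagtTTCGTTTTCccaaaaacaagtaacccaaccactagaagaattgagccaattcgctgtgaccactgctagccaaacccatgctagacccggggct
Slfn5 holds 2 matches, which start 155 and 132 bases before its start. Slfn9 holds 1, which starts 44 bases before its start, and both windows listed for Slfn8 hold the same 9 letters as Slfn9. The second Slfn8 window matched the Slfn9 window at 83.3% of 300 bases. The letters, read on both strands, occur in 8.56% of all promoter windows. The window of Slfn14 also holds 1 match, 197 bases before its start. The letters are not in the windows of Slfn1, Slfn2, Slfn3 and Slfn4. The letters TTCNNNGAA (STAT factors, in 8.3% of all windows), GGGANTTTC (kappa B, 1.11%) and GAGGAAGT (PU.1, 3.2%), also read on both strands, are in none of the members' windows. A match or its absence describes letters only.

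Libraries held between 18257930 and 20179875 counts, and 18258 to 20075 genes were detected in each. Across all genes, edgeR's quasi-likelihood test with Benjamini-Hochberg adjustment called 120 genes higher with MK-8931 (0.861% of those tested) and 19 lower (0.136%), at an adjusted p threshold of 0.05, and the median log2 fold change was −0.003. Macrophage genes were abundant in every library, with the CSF1 receptor gene Csf1r at 1583 and 1490 CPM (counts scaled by library size with TMM) in MK-8931 libraries and 1619 and 1548 CPM in controls. In bulk libraries, fewer cells of a type and less RNA per cell cannot be told apart. Since separate animals are not stated, p-values reflect the spread among these samples alone, and that spread may be technical. Without control 1 many more genes passed among all genes as well, so counts without it cannot be set against the main counts. The share of all genes with an unadjusted p under 0.05 is not given here, so list counts at that cutoff have no background beside them.

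Of the 7 members, 2 passed the threshold, Slfn1 and Slfn4, both higher with MK-8931, and 0 were lower. For 6 of 7, both MK-8931 libraries lay above both controls, an order found in 21.2% of all genes tested, and for Slfn3 the groups overlapped. The median log2 fold change of the members was 0.51. Nothing is read from these counts, since the comparison was in view when the family was chosen. Summed over the members, the level was 660.5 and 699.1 CPM in MK-8931 libraries and 428.0 and 363.4 CPM in controls. Both MK-8931 sums lay above both control sums.

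**Figure D1:**
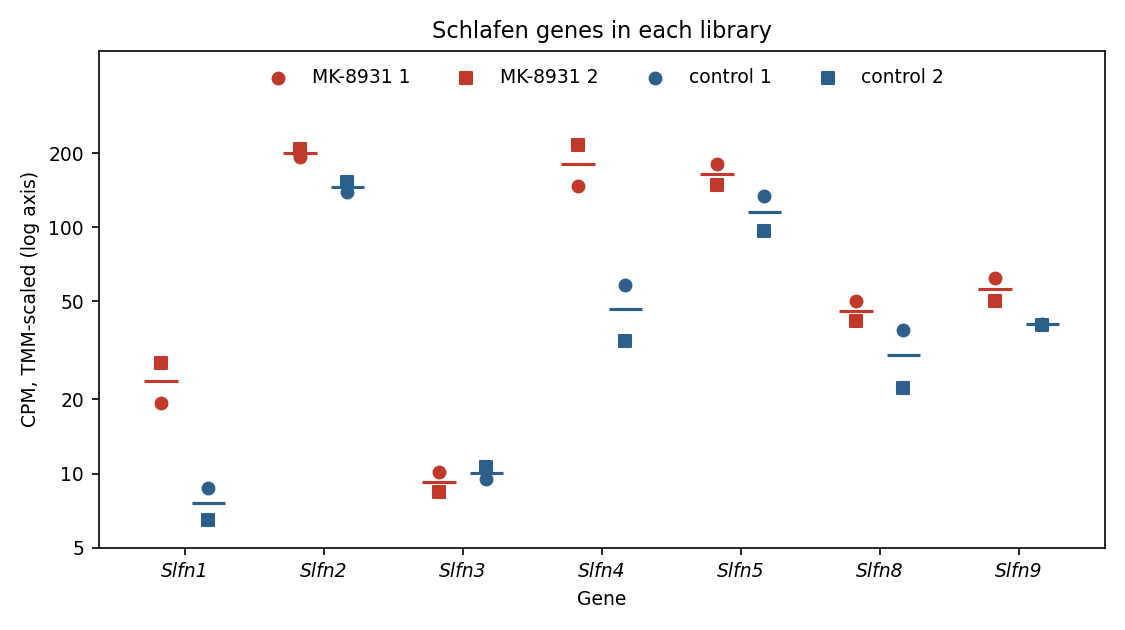
TMM-scaled CPM (log axis) of the 7 Schlafen genes in each library, MK-8931 left of control, with a bar at each group's mean. The groups are apart for every gene except Slfn3, and the widest separations are those of Slfn4 (146.7 and 214.8 CPM with MK-8931, 58.4 and 34.6 CPM in controls) and Slfn1.

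Slfn4, an intermediate member (ENSMUSG00000000204, chromosome 11, 83175186 to 83190216), had 2859 and 3951 counts in MK-8931 libraries and 1084 and 678 in controls. At 146.7 and 214.8 CPM with MK-8931 and 58.4 and 34.6 CPM in controls, the lower MK-8931 library was above the higher control. The means were 180.7 ± 48.2 CPM with MK-8931 and 46.5 ± 16.8 CPM in controls (SD, n = 2 each). The fitted log2 fold change was 1.96 (SE 0.263), which is 3.89-fold. The libraries of each group differed from each other, and leaving out 1 library at a time gave log2 fold changes between 1.63 and 2.37.

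Slfn3 (ENSMUSG00000018986, 83191330 to 83215154), the other intermediate member, is the gene next to Slfn4 and the closest to it in protein sequence, and it has been studied in differentiation of the gut epithelium. It had 197 and 155 counts in MK-8931 libraries and 177 and 208 in controls. Its levels were 10.1 and 8.43 CPM with MK-8931 and 9.53 and 10.6 CPM in controls, so the groups overlapped. The log2 fold change was −0.12 (SE 0.236), between −0.27 and −0.01 with 1 library left out. The ratio of Slfn4 to Slfn3 in CPM, not scaled to length, was 14.5 and 25.5 in MK-8931 libraries and 6.12 and 3.26 in controls. Of the stretches of 50 bases in Slfn4 transcripts, 8.15% also occur in another Schlafen gene, most of them in Slfn3, and the sources used here do not say how such reads were counted. With the counts of Slfn3 and Slfn4 summed before the fit, the log2 fold change was 1.75 (SE 0.229) and past the threshold.

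Slfn1, a short member named for its growth-inhibiting action in T cells (ENSMUSG00000078763, 83116849 to 83122670), had 376 and 517 counts in MK-8931 libraries and 162 and 127 in controls. Its levels were 19.3 and 28.1 CPM with MK-8931 and 8.72 and 6.49 CPM in controls, with means of 23.7 ± 6.24 CPM with MK-8931 and 7.61 ± 1.58 CPM in controls (SD, n = 2 each). The groups were apart, and the second MK-8931 library was the highest, as it was for Slfn4. The log2 fold change was 1.64 (SE 0.259), or 3.12-fold. Without MK-8931 2 it was 1.33 (SE 0.314) and no longer past the threshold, and without any other library it stayed between 1.44 and 1.88. Only 0.61% of the 50-base stretches of Slfn1 occur in another Schlafen gene.

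Slfn2, the other short member (ENSMUSG00000072620, 83065112 to 83070678), had 3742 and 3819 counts in MK-8931 libraries and 2579 and 2991 in controls. At 192.0 and 207.7 CPM with MK-8931 and 138.9 and 152.8 CPM in controls the groups were apart, with a narrow spread within each. The log2 fold change was 0.45 (SE 0.127), which did not pass the threshold, and it was 0.38 to 0.52 with 1 library left out. An unnamed antisense gene that overlaps Slfn2, Gm20234, had 71 and 66 counts in MK-8931 libraries and 44 and 14 in controls, few beside the counts of Slfn2. The sources used here do not say whether counting used strand, so reads of the overlap cannot be told apart.

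Slfn5, a long member whose human counterpart acts on interferon-driven transcription and on viral DNA (ENSMUSG00000054404, 82951349 to 82964840), had 3513 and 2728 counts in MK-8931 libraries and 2484 and 1887 in controls. Its levels were 180.2 and 148.3 CPM with MK-8931 and 133.8 and 96.4 CPM in controls. The gap between the groups was narrower than the gap between the controls. The log2 fold change was 0.51 (SE 0.179), not past the threshold. It moved to 0.30 without control 2 and to 0.76 without control 1. Slfn5os, annotated antisense to Slfn5, had 0 counts in all libraries.

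Slfn8 (ENSMUSG00000035208, 83002158 to 83020810) and Slfn9 (ENSMUSG00000069793, 82978390 to 82991830) are the long members closest to each other in protein sequence. Slfn8 had 975 and 764 counts in MK-8931 libraries and 708 and 437 in controls, or 50.02 and 41.5 CPM with MK-8931 and 38.1 and 22.3 CPM in controls. Its log2 fold change of 0.60 (SE 0.244) did not pass, and it was 0.26 without control 2 and 1.03 without control 1. Control 1 lay close to the MK-8931 libraries and control 2 well below them. Slfn9 had 1214 and 924 counts in MK-8931 libraries and 755 and 783 in controls. Its levels were 62.3 and 50.2 CPM with MK-8931 and 40.7 and 40.0 CPM in controls, with the controls close together, and the log2 fold change of 0.48 (SE 0.159) did not pass and moved to 0.31 without MK-8931 1. Of the 50-base stretches of Slfn8, 14.6% occur in another family gene, and of those of Slfn9, 11.2%. Slfn8 and Slfn9 have 389 such stretches in common, and each has more in common with the pseudogene Slfn10-ps, 423 for Slfn8 and 483 for Slfn9, so reads may have been divided among all 3. The summed counts of Slfn8 and Slfn9 gave a log2 fold change of 0.53 (SE 0.168), not past the threshold.

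The members did not order the libraries alike. Slfn1, Slfn2 and Slfn4 were higher in MK-8931 2 than in MK-8931 1, and Slfn3, Slfn5, Slfn8 and Slfn9 were higher in MK-8931 1. Control 1 was above control 2 for Slfn1, Slfn4, Slfn5, Slfn8 and Slfn9. The long members, summed, had 292.5 and 240.1 CPM in MK-8931 libraries and 212.5 and 158.8 CPM in controls. The short members had 211.2 and 235.8 CPM in MK-8931 libraries and 147.6 and 159.3 CPM in controls. The intermediate members, nearly all Slfn4, had 156.8 and 223.3 CPM in MK-8931 libraries and 67.9 and 45.3 CPM in controls. All 3 sums were apart between the groups.

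Levels were compared between genes on the authors' FPKM, which is scaled to gene length. Slfn2 was the highest member in every library, at 114.5 and 123.8 FPKM in MK-8931 libraries and 83.0 and 92.1 FPKM in controls. It made up 53.2% and 52.3% of the summed FPKM of the family with MK-8931 and 58.4% and 68.2% in controls. Slfn4 was next with MK-8931, at 36.7 and 53.7 FPKM, against 14.6 and 8.76 FPKM in controls. Its share of the family sum was 17.1% and 22.7% with MK-8931 and 10.3% and 6.49% in controls. Slfn3 was the lowest member in every library, at 2.94 and 2.45 FPKM with MK-8931 and 2.78 and 3.12 FPKM in controls.

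In MK-8931 libraries the order by mean FPKM was Slfn2, Slfn4, Slfn5, Slfn1, Slfn8, Slfn9, Slfn3, and in controls it was Slfn2, Slfn5, Slfn4, Slfn8, Slfn9, Slfn1, Slfn3. With MK-8931, the ranges of Slfn1 and Slfn8 overlapped, as did those of Slfn8 and Slfn9. In controls, those of Slfn4 and Slfn8 overlapped, as did those of Slfn8 and Slfn9. The other neighbours in each order were apart. Slfn5 thus stood at 28.3 and 23.3 FPKM, below both values of Slfn4, in MK-8931 libraries, and at 21.0 and 15.3 FPKM, above both values of Slfn4, in controls. Slfn1 had 10.3 and 15.0 FPKM in MK-8931 libraries, beside 12.1 and 10.1 FPKM for Slfn8 and 10.4 and 8.35 FPKM for Slfn9. In controls Slfn1 had 4.65 and 3.49 FPKM, below Slfn8 at 9.27 and 5.47 FPKM and Slfn9 at 6.78 and 6.73 FPKM.

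**Figure D2:**
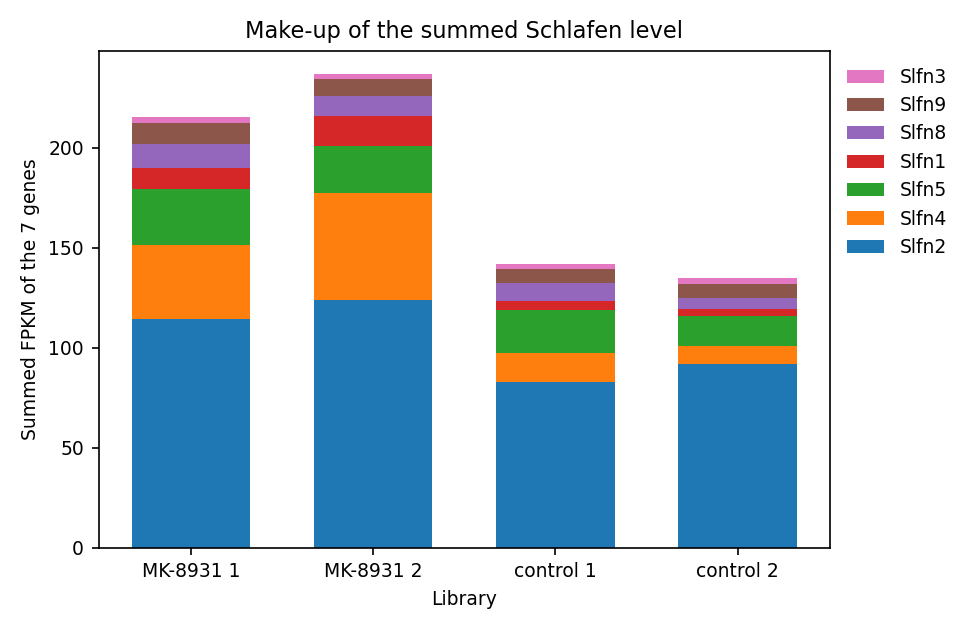
The authors' FPKM of the 7 Schlafen genes stacked by library, MK-8931 libraries left of controls. The sums are 215.3 and 236.6 FPKM with MK-8931 and 142.1 and 134.9 FPKM in controls, Slfn2 is the tallest segment in each bar, and Slfn4 takes 17.1% and 22.7% with MK-8931 and 10.3% and 6.49% in controls.

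Of the relatives outside the members, 1 of 3 had enough counts to be tested, and it did not pass. Slfn10-ps, a pseudogene that lies between Slfn8 and Slfn2 and shares 19.7% of its 50-base stretches with other family genes, had 426 and 346 counts in MK-8931 libraries and 374 and 312 in controls. The groups overlapped, and the log2 fold change was 0.17 (SE 0.2). Slfn14, a long member whose human counterpart is mutated in an inherited platelet disorder, had 0 counts in all libraries, as did Slfnl1, a Schlafen-like gene outside the cluster. A count of 0 allows a level of up to 0.153 to 0.163 CPM, the level of 3 counts in a library, as counting error only.

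The protein-coding neighbours of the cluster named here did not pass the threshold with edgeR or DESeq2, and 0 of them had an unadjusted p under 0.05. On the side of Slfn5, Rad51d, a DNA recombination gene, had a log2 fold change of 0.01 (SE 0.224) and Nle1, a ribosome assembly gene, 0.18 (SE 0.195). Fndc8, with at most 7 counts in a library, and Unc45b, with at most 2, were not tested. On the side of Slfn3, Ap2b1, a clathrin adaptor subunit, had 0.10 (SE 0.128), while Slfn14 and Rasl10b had 0 counts. Within the cluster, Slfn1 and Slfn4 lie side by side and Slfn3 comes right after them.

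**Figure D3:**
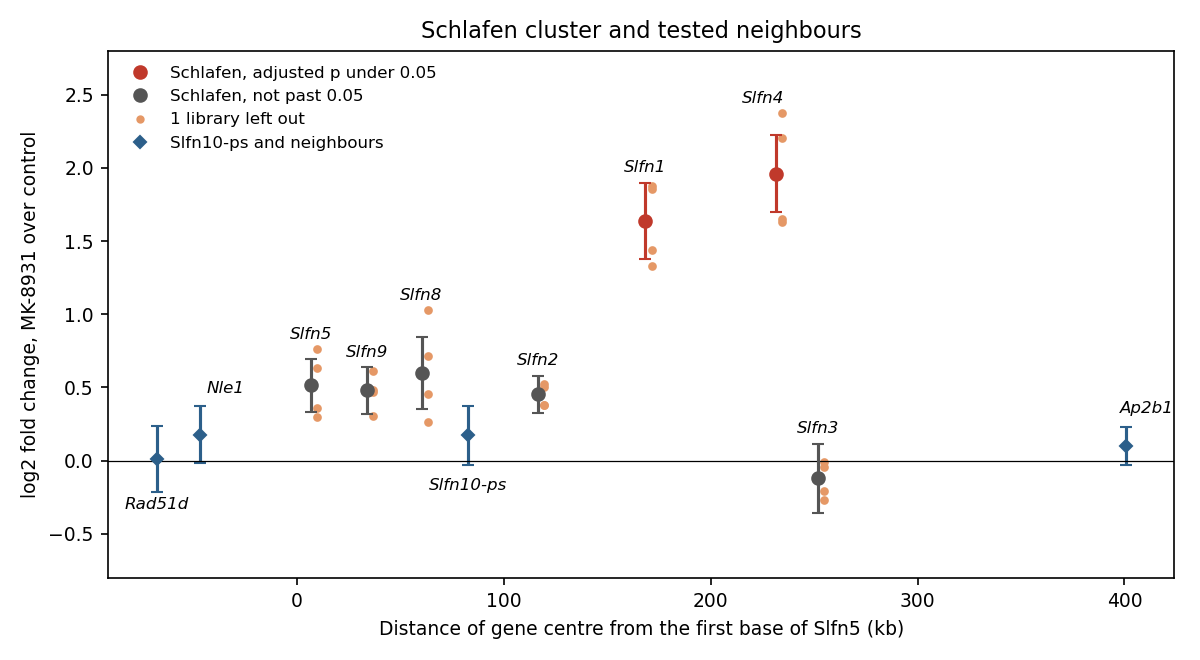
Fitted log2 fold change, MK-8931 over control, with its SE, against the distance of each gene's centre from the first base of Slfn5. Small points show the members' values with 1 library left out. Slfn1 and Slfn4 stand at 1.64 and 1.96, while Slfn3 on their far side and the neighbours shown outside the cluster lie between −0.12 and 0.18.

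Interferon genes were set beside the family because many Schlafen genes are interferon targets. The signalling list holds ligands, receptors, sensors and factors of the type I pathway. For 15 of its 23 tested genes both MK-8931 libraries lay above both controls, an order found in 21.2% of all genes tested. Of the 23, 1 rose and 0 fell, and their median log2 fold change was 0.20, beside −0.003 over all genes. At an unadjusted p under 0.05 the counts were 7 and 0, DESeq2 also gave 1 and 0, and 4 genes rose and 0 fell without control 1. The gene that rose was Myd88, the adaptor of toll-like and interleukin-1 receptors, with 59.9 and 59.6 CPM in MK-8931 libraries and 33.9 and 35.8 CPM in controls. Its log2 fold change was 0.78 (SE 0.142, adjusted p = 0.046, edgeR), and the call was lost without MK-8931 1 (adjusted p = 0.192, edgeR) and without MK-8931 2 (adjusted p = 0.232, edgeR). The interferon gene Ifnb1 had 15 and 10 counts in MK-8931 libraries and 14 and 20 in controls. Irf7, a factor that drives interferon genes, was at 115.1 and 114.1 CPM with MK-8931 and 90.8 and 81.8 CPM in controls, with a log2 fold change of 0.41 (SE 0.132) that did not pass.

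Of 36 type I interferon-stimulated genes, all tested, 1 rose and 0 fell, and 25 had a log2 fold change above 0, with a median of 0.23. The gene that rose was Ms4a4c, a membrane protein gene, at 33.3 and 41.6 CPM in MK-8931 libraries and 19.0 and 16.6 CPM in controls (log2 fold change 1.07, SE 0.185, adjusted p = 0.036, edgeR). Without MK-8931 2 its adjusted p was 0.199 (edgeR), and 0 genes of the list passed. The count was 7 higher and 2 lower without control 1, 8 and 2 at an unadjusted p under 0.05, and 2 and 0 with DESeq2. Summed over the list, the level was 1709 and 1750 CPM in MK-8931 libraries and 1561 and 1613 CPM in controls. For 18 of the 36 both MK-8931 libraries lay above both controls, an order found in 21.2% of all genes tested. The log2 fold changes of the list ran from −0.52 for Ifit3b to 1.07 for Ms4a4c. Of the members, Slfn2 (0.45), Slfn3 (−0.12) and the long members (0.48 to 0.60) lay within this range, and Slfn1 and Slfn4 lay above it. The members were chosen with this comparison in view, so this is a description only.

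Genes of the toll-like receptor and NF-kB response are known, like Slfn4, to answer activating stimuli in macrophages. Of 21 tested, 7 rose and 0 fell, with a median log2 fold change of 0.42. Acod1, which makes itaconate, had 58.9 and 73.4 CPM in MK-8931 libraries and 4.95 and 7.77 CPM in controls (log2 fold change 3.37, SE 0.241, adjusted p = 5.74e-04, edgeR). Il1b, the interleukin-1 beta gene, had 265.2 and 419.2 CPM with MK-8931 and 42.8 and 30.0 CPM in controls (3.23, SE 0.253, adjusted p = 8.4e-04, edgeR). Nos2, the inducible nitric oxide synthase, had 163.4 and 153.1 CPM with MK-8931 and 51.2 and 33.0 CPM in controls (1.91, SE 0.204, adjusted p = 0.00352, edgeR). The others that rose were Cxcl2, Ptgs2, Clec4e and Marcksl1. Tnf, another target of the same pathway, had the lowest value, −0.95 (SE 0.19), and did not pass. At an unadjusted p under 0.05, 12 were higher and 1 lower, and DESeq2 gave 7 and 1.

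Genes of CSF1 signalling and macrophage differentiation, the process in which Slfn4 is known to decline, gave 2 higher and 1 lower of 16 tested, with a median log2 fold change of 0.22. Without control 1, 4 were higher and 1 lower. The 2 that rose belong to granulocyte colony-stimulating factor: Csf3, the ligand, with 68 and 93 counts in MK-8931 libraries and 6 and 2 in controls (log2 fold change 4.30, SE 0.645, adjusted p = 0.0205, edgeR), and its receptor gene Csf3r (2.08, SE 0.171, adjusted p = 8.87e-04, edgeR). The control counts of Csf3 were under the filter's minimum of 10. It was tested through the MK-8931 libraries alone, so its call is a description only. Klf4, a transcription factor of monocyte and macrophage maturation, fell by 1.03 on the log2 scale (SE 0.159, adjusted p = 0.0226, edgeR), with 193.0 and 146.0 CPM in MK-8931 libraries and 325.6 and 367.0 CPM in controls. Without MK-8931 2 its call was lost (adjusted p = 0.124, edgeR).

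Neutrophils also express Schlafen genes, and their markers were set beside the family. Of 22 listed markers 16 were tested, and 14 rose and 0 fell, with a median log2 fold change of 3.12. The list, like the others, was chosen with earlier results of these data known, so its counts are a description only. Ltf (2.65, SE 0.944) and Padi4 (−0.43, SE 0.84) were tested and did not pass. The summed level of the markers was 1344 and 2087 CPM in MK-8931 libraries and 501.3 and 459.8 CPM in controls. MK-8931 2 was the highest library, as for Slfn1, Slfn2 and Slfn4. It was also highest for the summed toll-like receptor and NF-kB, interferon-stimulated, dendritic cell and platelet lists. MK-8931 1 was highest for Slfn5, Slfn8 and Slfn9 and for the summed interferon signalling, CSF1 and monocyte lists. Control 2 was highest for Slfn3 and for the summed macrophage and lymphocyte lists. Without Mmp9, the most abundant of the neutrophil markers, the sums were 712.7 and 1148 CPM with MK-8931 and 125.9 and 111.2 CPM in controls. Cxcr2, a chemokine receptor of neutrophils, had 1035 and 1369 counts in MK-8931 libraries and 29 and 16 in controls (log2 fold change 5.74, SE 0.313, adjusted p = 1.41e-04, edgeR). G0s2, an inhibitor of fat breakdown, had 299 and 628 counts with MK-8931 and 0 and 7 in controls (7.03, SE 0.704, adjusted p = 0.00247, edgeR). Its control counts were under the filter's minimum of 10, so it entered the test through the MK-8931 libraries alone. Its value was 6.08 without control 1, and without control 2 no fold is given, since the remaining control had 0 counts. Stfa2l1, a stefin of a cluster of near-identical genes, had 6.12 (SE 0.404, adjusted p = 5.37e-04, edgeR). It had 4 and 9 counts in controls, also under the filter's minimum. The calls of G0s2 and Stfa2l1 are therefore a description only. The granule gene Elane had 0 counts in all libraries, and Ly6g, which encodes part of the Gr1 antigen sorted against, had 0 and 14 counts in MK-8931 libraries and 0 in both controls. The part of these cells in the values of Slfn1 and Slfn4 was not tested.

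Monocyte markers gave 8 higher and 1 lower of 19 tested, with a median log2 fold change of 1.35. Their summed level was 7156 and 6523 CPM in MK-8931 libraries and 6480 and 5881 CPM in controls, and none was at 0. Most of this was Fn1, the fibronectin gene, which did not pass (−0.07), and without it the sums were 1617 and 1496 CPM with MK-8931 and 782.4 and 505.7 CPM in controls. Those that rose included Hp, haptoglobin (log2 fold change 3.05, SE 0.255, adjusted p = 8.87e-04, edgeR), and Chil3, a chitinase-like protein (1.73, SE 0.217, adjusted p = 0.00794, edgeR). Lyz1, a lysozyme gene, fell by 1.27 (SE 0.219, adjusted p = 0.036, edgeR), and this call was lost without MK-8931 1 (adjusted p = 0.07, edgeR) and without MK-8931 2 (adjusted p = 0.0754, edgeR). Their part in the values of the Schlafen genes was not tested.

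Of 16 macrophage and microglia markers, 1 rose and 0 fell, with a median log2 fold change of −0.21. Their summed level was 17630 and 18520 CPM in MK-8931 libraries and 20880 and 26370 CPM in controls. Without control 1, 2 were higher and 6 lower, as at an unadjusted p under 0.05, and DESeq2 gave 1 and 2. The gene that rose was Itgam, which encodes CD11b (log2 fold change 0.75, SE 0.138, adjusted p = 0.0485, edgeR). Its call was lost without MK-8931 1 (adjusted p = 0.122, edgeR), without MK-8931 2 (adjusted p = 0.248, edgeR) and with library size alone as the scaling (adjusted p = 0.0599, edgeR). Without Apoe, the most abundant marker, the macrophage marker sums were 11410 and 11800 CPM with MK-8931 and 12390 and 15340 CPM in controls. Slfn2, Slfn5, Slfn8 and Slfn9, which did not pass, lay above the controls in both MK-8931 libraries, as 21.2% of all genes tested did. The part of macrophages in these values was not tested.

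Lymphocytes, in which the family was first studied, left few counts. Of 19 markers 4 were tested and 0 passed with edgeR or DESeq2, while 0 were higher and 1 lower at an unadjusted p under 0.05 (edgeR). The summed level was 39.6 and 47.3 CPM in MK-8931 libraries and 49.97 and 60.1 CPM in controls. Without Cd4, the most abundant of them, the sums were 12.9 and 18.2 CPM with MK-8931 and 12.8 and 11.5 CPM in controls. The 2 with the smallest p were Cd4, with a value of −0.62 on the log2 scale (SE 0.179, adjusted p = 0.196, edgeR), and Cd79b, a B cell receptor subunit, at 0.41 (SE 0.303, adjusted p = 0.725, edgeR). Cd8b1, Nkg7, Ncr1, Klrb1c and Gzma had 0 counts in all libraries. Dendritic cell markers gave 1 higher and 0 lower of 11 tested, with a summed level of 206.8 and 251.8 CPM in MK-8931 libraries and 179.4 and 138.9 CPM in controls. It was Ccl22, a chemokine gene (log2 fold change 1.78, SE 0.295, adjusted p = 0.0323, edgeR), and its call was lost without MK-8931 1 (adjusted p = 0.087, edgeR), where 0 of the list passed. Without MK-8931 2 or control 1, 2 passed.

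Platelet markers were included because of Slfn14. Of 8 listed, 5 were tested, and 2 rose and 0 fell, and the median log2 fold change was −0.03. The summed level was 357.2 and 449.2 CPM in MK-8931 libraries and 192.3 and 194.3 CPM in controls, most of it Pf4, and 59.1 and 62.0 CPM with MK-8931 and 35.2 and 27.3 CPM in controls without that gene. The genes that rose were Pf4, platelet factor 4, at 1.08 on the log2 scale (SE 0.151, adjusted p = 0.0139, edgeR), and Ppbp, a platelet chemokine precursor, at 3.17 (SE 0.514, adjusted p = 0.0337, edgeR). The call of Pf4 was lost without MK-8931 2 (adjusted p = 0.0659, edgeR), and that of Ppbp without MK-8931 1 (adjusted p = 0.438, edgeR) or MK-8931 2 (adjusted p = 0.589, edgeR). The other tested markers, Itga2b, Itgb3 and Treml1, had −0.03, −0.15 and −0.44 and did not pass. Gp1bb, a platelet receptor subunit, had 0 counts in all libraries, as Slfn14 did.

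**Figure D4:**
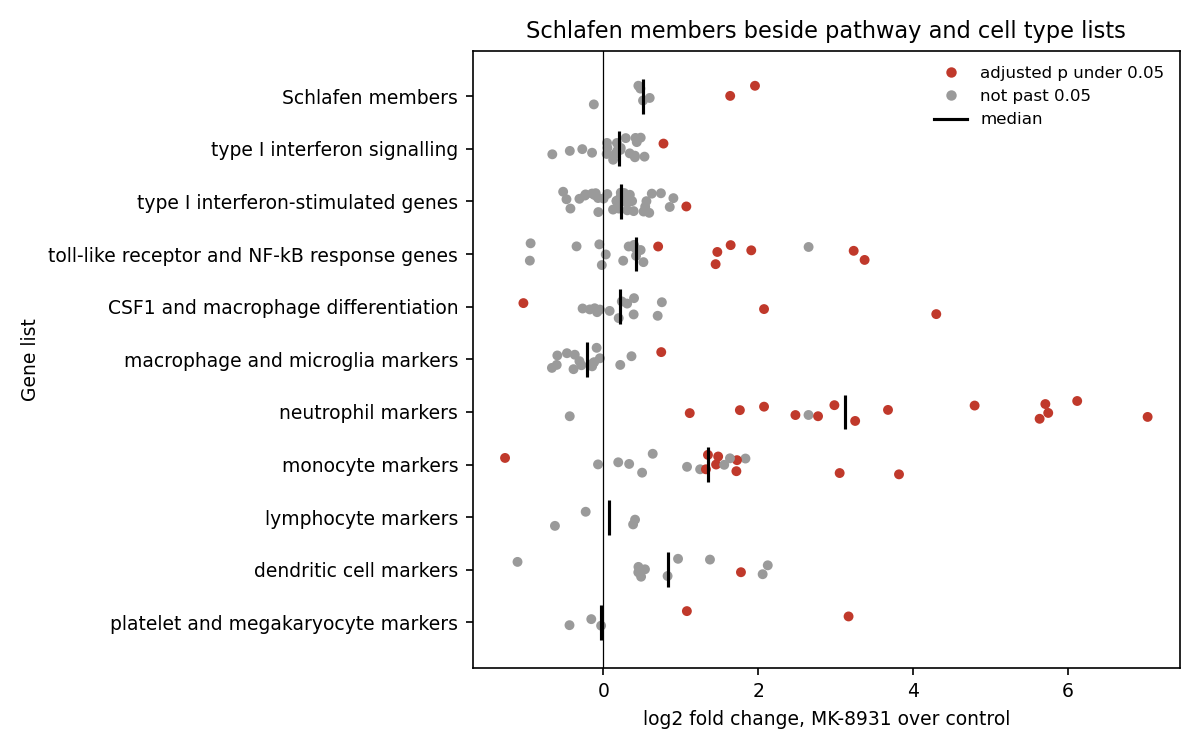
Fitted log2 fold changes, MK-8931 over control, of the tested Schlafen members and of each list, 1 point per gene, with a line at each median. Red points passed an adjusted p of 0.05. The medians were 0.51 for the members, which were chosen with this comparison in view, and 0.23 for the interferon-stimulated genes. The neutrophil markers have the highest median (3.12). The lists too were chosen with earlier results of these data known.

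The genes whose profile over the 4 libraries was most like that of a member were found by the root-mean-square distance between centred log2(CPM + 0.5) values, over 9693 genes, as a description. For Slfn4 they were Trem1 (distance 0.14), Ltb4r1 (0.165), Ntng2 (0.175), Traf1 (0.181) and Cxcl5 (0.183). Trem1, an amplifying receptor of myeloid cells that is also on the neutrophil list, had 72.0 and 86.0 CPM in MK-8931 libraries and 29.2 and 17.4 CPM in controls. Slfn1 was ranked 15 from Slfn4, at 0.235, and Slfn3 was ranked 7157. For Slfn2 the nearest were Clec12a (0.0206), Casp4 (0.0241), C5ar2 (0.0283), Aldh3b1 (0.0284) and Decr2 (0.0309). Clec12a, an inhibitory lectin receptor of myeloid cells, had 81.7 and 90.0 CPM in MK-8931 libraries and 60.3 and 67.7 CPM in controls. The nearest genes to Slfn2 differed between the groups by 0.43 to 0.48 on the log2 scale, and 0 of them passed. Of the nearest to Slfn4, Trem1, Ltb4r1 and Traf1 passed, and Ntng2 and Cxcl5 did not. Changes close to that of the member follow from picking genes by distance, so nothing is read from them.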

How the data were processed

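RNA from 4 libraries was measured, and groups were taken from the titles. The authors deposited raw counts, whole numbers for each gene, per the file headers. FPKM was computed by the authors from the same counts, gene length and library size, and was used for levels only. The submitters' processing notes name CASAVA and mm9, but 98.3% of 54409 shared gene identifiers have the coordinates of GRCm38, which is given here. Which aligner and counting tool were used, and whether with strand, is not given in the sources used here. A further 4 columns of per-library values were not used.

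The fit was made in R 4.3.3 with edgeR 4.0.16 (filterByExpr minimum count 10, TMM, robust quasi-likelihood F test, two-sided, Benjamini-Hochberg over 13932 genes, group as the only term), after a check on simulated data. The SE of a log2 fold change is its size over the square root of F. DESeq2 1.42.0, other scalings, no filter, members of at least 80% protein identity summed, a replicate term and each library left out were alternatives. Libraries of a group were not copies of each other: their counts gave a chi-square of 15.7 (MK-8931) and 26.8 (control) per degree of freedom. Intervals and floors cover counting error only.

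The members and lists were chosen with earlier results of these data known. From each list, every gene that passed was named where 6 or fewer did, otherwise the 3 largest changes in each direction, and for a list with no such gene the 2 lowest p. The rule also takes 4 coding neighbours on each side and the 5 nearest profiles (mean CPM of at least 5) of the highest and of the most changed member. Other genes named, such as Csf1r, Irf7, Ifnb1, Ifit3b, Tnf, Fn1, Mmp9, Itga2b, Itgb3, Treml1, Ly6g and Elane, were chosen after their values were seen. Proteins were translated from GENCODE M21 and aligned with Biopython 1.88. A few of the genes chosen by rule are left unreported here.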

Additional observations from a re-analysis of the deposited data

How the results depend on the processing

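Of 72 values of the members and Slfn10-ps under the alternatives, 63 stayed on their side of the threshold, 2 lost a call and 7 gained one. The 19 listed genes that passed and were taken by the naming rule gave 171 values. Of these, 156 kept the call and 15 lost it. In these 243 values 0 changed direction. Of the 7 members, 2 passed in the main comparison, 1 to 4 with 1 library left out, 3 with no filter on low counts (Slfn5 added) and 5 under the replicate block, a term for the number in the titles. The replicate block called Slfn1, Slfn2, Slfn5, Slfn8 and Slfn9 and lost Slfn4 (log2 fold change 1.97, SE 0.541). Same-numbered libraries shared only a number in the labels, and their deviations correlated at 0.219 over 13932 genes, so the block is no pairing by design. Among all genes, 139 passed in the main comparison, 337 with DESeq2 (242 higher, 95 lower), 542 with no filter (366 higher, 176 lower), 743 with the replicate block (468 higher, 275 lower) and 95 (without MK-8931 2) to 763 (without control 1; 520 higher, 243 lower) with 1 library left out. Of 166 tested genes of the lists, 38 passed, against 64 with the replicate block and 26 to 64 with 1 library left out. The replicate block ended the calls of Il1b (adjusted p = 0.214, edgeR) and Ppbp (adjusted p = 0.374, edgeR). Slfn2 made up 58.0% of the family's summed FPKM over the libraries and 33.3% of its CPM, which is not scaled to length. The cause of these differences was not tested, except that the block and left-out fits use fewer degrees of freedom or fewer libraries. With 2 libraries a group, a two-sided exact permutation test cannot go below p = 0.333.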
